A study of Mus musculus with 18 samples.

Results

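Trimethylation of histone H3 at lysine 9 (H3K9me3) was present in wild-type and *Uhrf1* KO mouse embryonic stem cells (mESCs), and absent from the peak lists of *Dhx9* KO cells, at 509 regions of the autosomes. They were chosen on the peak lists themselves: the peaks of 6 libraries were merged where they overlapped or touched, and a region was taken when both WT and both *Uhrf1* KO libraries had a peak in it and neither *Dhx9* KO library did. Of 154338 merged regions, 38234 had a peak in both WT and both *Uhrf1* KO libraries, and 509 of these (1.33%) had none in *Dhx9* KO cells. A peak was kept in both *Dhx9* KO libraries at 34626 regions, was missing in *Dhx9* KO replicate 1 alone at 2511, and was missing in *Dhx9* KO replicate 2 alone at 588. Of the 4969 regions with a peak in both WT and neither *Dhx9* KO library, a further 931 had one in *Uhrf1* KO replicate 2 alone of the *Uhrf1* KO libraries, and 3364 were lost in both knockouts.

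H3K9me3 marks heterochromatin, the compacted and silent part of the genome, and in mESCs it covers transposable elements, satellite repeats, clusters of zinc finger and receptor genes, and the silent alleles of imprinted genes. SETDB1, with its adaptor TRIM28 and KRAB zinc finger proteins that read DNA, places most of it outside satellites, and SUV39H enzymes place it over satellites. DHX9 is a helicase that unwinds RNA and RNA:DNA hybrids. UHRF1 is a ubiquitin ligase that binds hemimethylated DNA and H3K9 methylation and is needed to copy DNA methylation after replication.

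All libraries came from the mESC line E14TG2a, grown in serum medium and precipitated with the same antibody to H3K9me3, with 2 libraries per genotype (labelled WT, DHX9KO and UHRF1KO). The *Uhrf1* KO cells are CRISPR-Cas9 clones of mESCs that carry an inducible heterochromatin reporter. The paper labels the WT cells compared with them as carrying this reporter too. How the *Dhx9* KO cells were made, and whether they are clones, is not given in the sources used here. The other 12 of 18 samples were not analysed here. Peak lists of a histone mark do not read the *Dhx9* or *Uhrf1* transcript, so neither knockout could be checked. At the promoters of 10 genes that mark mESCs, which are active and should lack the mark, 9 had no peak in any library, and so had 5 of 9 promoters of genes of other cell types.

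The *Dhx9* KO libraries were not the smallest, but their peaks were the least enriched. They held 125453 and 120695 peaks, against 116156 and 119982 in WT and 70195 and 93916 in *Uhrf1* KO, and their ChIP libraries were 1.12 and 1.11 times the size of WT replicate 1. At the regions with a peak in all 6 libraries, the median log2 fold of ChIP over background was 1.20 and 1.34 in *Dhx9* KO, against 1.45 and 1.47 in WT and 1.66 and 1.69 in *Uhrf1* KO, whose lists use another background. The part of this lower enrichment in the missing peaks was not tested. *Uhrf1* KO replicate 1 was 0.542 times the size of *Uhrf1* KO replicate 2. At peaks with identical limits, the WT and *Dhx9* KO lists gave the same number of background reads at 100% of peaks, and the *Uhrf1* KO lists seldom did. The *Dhx9* KO lists therefore hold no background measured in *Dhx9* KO cells, so a difference in the DNA itself between the 2 lines cannot be told apart from a difference in the mark.

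The regions were numbered M001 to M509 in genome order, and a few of their sequences are shown because they stand for the kinds of region described next. Each is 200 bases of the mm10 reference, 5′ to 3′, with CG dinucleotides, the sites of DNA methylation, in capitals. The first pair shows sequence shared by some of the strongest lost regions: matching stretches of M066 in an intron of *Arhgef38* (chr3:133125008-133125207, plus strand) and of M018 between genes (chr1:141036801-141037000, plus strand), which are identical at 98.5% of bases.
M066: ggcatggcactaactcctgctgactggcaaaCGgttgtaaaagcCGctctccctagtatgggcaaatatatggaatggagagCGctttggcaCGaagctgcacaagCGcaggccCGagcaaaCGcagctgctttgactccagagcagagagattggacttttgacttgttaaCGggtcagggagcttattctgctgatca
M018: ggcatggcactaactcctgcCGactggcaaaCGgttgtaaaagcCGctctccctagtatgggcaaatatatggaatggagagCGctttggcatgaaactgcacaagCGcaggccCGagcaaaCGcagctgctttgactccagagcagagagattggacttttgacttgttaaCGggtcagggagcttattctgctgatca
M072 (chr4:51102201-51102400, plus strand, between genes) ranked first by enrichment, and the whole of it is soft-masked as repeat in the reference.
M072: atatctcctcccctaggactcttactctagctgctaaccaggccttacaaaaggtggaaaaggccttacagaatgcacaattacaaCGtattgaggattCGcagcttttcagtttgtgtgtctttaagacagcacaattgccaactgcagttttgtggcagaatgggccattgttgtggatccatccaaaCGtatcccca
M364 (chr12:115303001-115303200, plus strand, between genes) had the highest enrichment of the lost regions among the immunoglobulin heavy chain variable genes, and has 1 CG in 200 bases.
M364: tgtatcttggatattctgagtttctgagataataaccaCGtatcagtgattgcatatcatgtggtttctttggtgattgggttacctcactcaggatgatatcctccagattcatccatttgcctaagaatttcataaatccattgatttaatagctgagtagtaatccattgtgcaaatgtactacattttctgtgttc
M297 (chr11:45980301-45980500, plus strand) covers the promoter of *Sox30*, which codes for a transcription factor of the male germ line, and has 35 CG in 200 bases, of which 83.5% are G or C.
M297: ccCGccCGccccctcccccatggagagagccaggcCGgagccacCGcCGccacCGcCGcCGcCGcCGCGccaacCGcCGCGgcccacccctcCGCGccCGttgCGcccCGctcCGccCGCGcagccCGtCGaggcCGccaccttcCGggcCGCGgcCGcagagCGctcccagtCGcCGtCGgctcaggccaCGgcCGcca
M466 (chr17:21730401-21730600, plus strand) covers the promoter of the zinc finger gene *Zfp229*, is wholly soft-masked and has 13 CG.
M466: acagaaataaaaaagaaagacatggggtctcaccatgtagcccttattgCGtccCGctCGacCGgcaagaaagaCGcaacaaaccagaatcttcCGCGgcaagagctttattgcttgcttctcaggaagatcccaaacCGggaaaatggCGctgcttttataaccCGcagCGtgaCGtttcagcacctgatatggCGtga

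Lost regions were short. Their median length was 3 kb (quartiles 1.8 and 4.4, range 0.2 to 28.6), against 6.6 kb where all 6 libraries had a peak. Their enrichment, the log2 fold of ChIP over background reads given by the peak caller, had medians of 1.26 and 1.26 in the WT libraries and 1.58 and 1.54 in the *Uhrf1* KO libraries, against 1.45, 1.47, 1.66 and 1.69 at kept regions, where the *Dhx9* KO libraries had 1.20 and 1.34. These values chose the regions and are given without a test. By length, the 38234 regions were cut into 5 bins of equal number, and 3.96% of the shortest bin were lost and 0.131% of the longest. By the lower of the 2 WT log2 folds, 2.59% of the weakest bin were lost, 0.876% of the middle bin and 1.32% of the strongest, so the strong end holds lost regions as well as the weak end.

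A lost region is one without a listed peak, and many were close to the threshold. The highest of its 4 false discovery rates (FDR) was above 0.01 at 54 regions, with a highest value of 0.0494 against the lists' limit of 0.05, and at most 1e-10 at 128 regions. The lowest of its 4 log2 folds was under 0.5 at 105 regions, at least 1 at 228, at least 2 at 65 and at least 3 at 19. Just inside stood the region at chr5:14951001-14953400, with 109, 121, 76 and 124 ChIP reads in WT replicates 1 and 2 and *Uhrf1* KO replicates 1 and 2 and a WT replicate 1 log2 fold of 0.23. Just outside stood the region at chr1:127251401-127258200, which was missing in *Dhx9* KO replicate 2 alone and had 137 ChIP reads and an FDR of 0.0492 in *Dhx9* KO replicate 1.

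Strong regions were also found just outside. A region of 200 bp in an intron of *A830018L16Rik* (chr1:11889001-11889200) had 40 and 28 ChIP reads in WT, 20 and 28 in *Uhrf1* KO and 55 in *Dhx9* KO replicate 2, with no peak in *Dhx9* KO replicate 1. The regions at chr3:126132601-126134000 and chr15:24320601-24323400 had the same pattern, with 58 and 122 reads in *Dhx9* KO replicate 2. The lists changed with the thresholds too: with peaks of FDR up to 1e-10 alone, 491 of 20216 regions were lost (2.43%), and 128 of the 509 (25.1%) were among them. With peaks of a log2 fold of at least 1 alone, 1266 were lost, holding 228 of the 509 (44.8%). The count rests on every library: it was 3162 without *Dhx9* KO replicate 2, 1125 without *Dhx9* KO replicate 1, 851 and 809 without WT replicates 1 and 2, and 1498 without *Uhrf1* KO replicate 1.

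The 12 strongest lost regions, ranked by the lowest of the 4 log2 folds, were nearly all repeat sequence. They were 200 to 2800 bp long, 9 lay between genes and 3 in introns (of *Scarb2*, *Arhgef38* and *Gm29676*), and in 11 of them at least 98% of the central 1 kb was soft-masked (67.0% in the other, M170). Their ChIP reads ran from 29 to 171 (median 54.5) in WT replicate 1, 25 to 73 (41.5) in WT replicate 2, 14 to 75 (26) in *Uhrf1* KO replicate 1 and 27 to 122 (70) in *Uhrf1* KO replicate 2. Background reads were at most 5 in every list at all 12, so the folds rest on very few background reads.

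**Figure D1:**
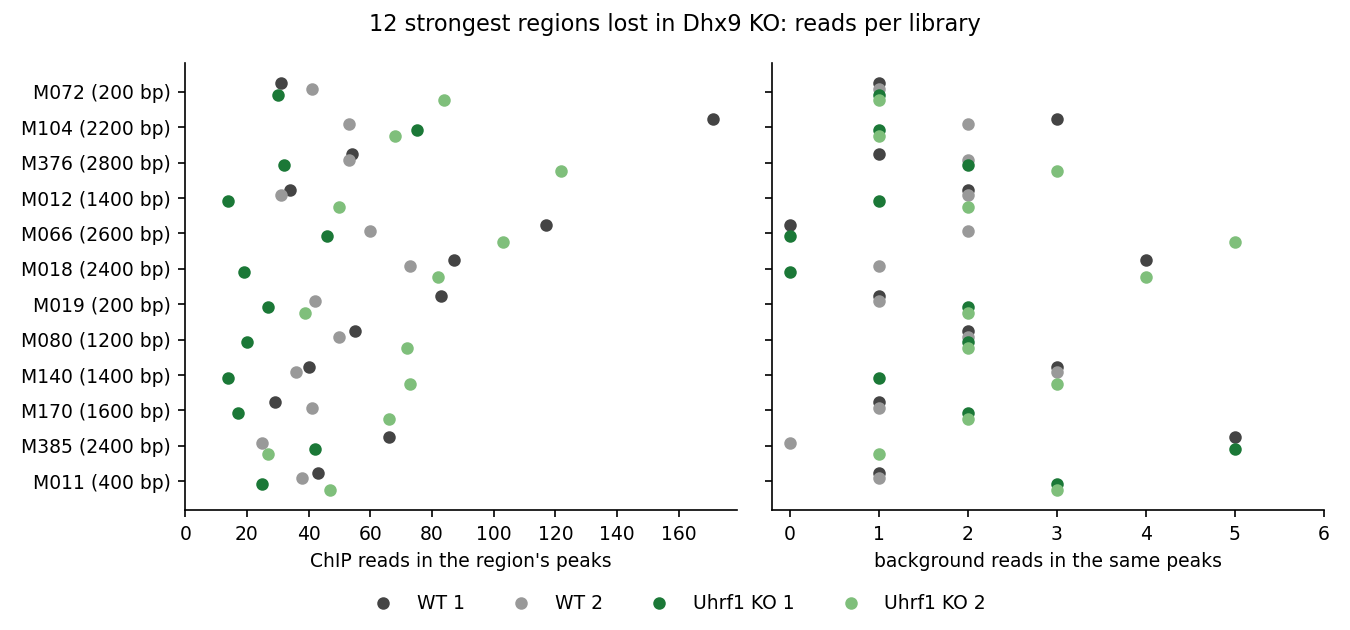
ChIP reads (left) and background reads (right) in the peaks of the 12 strongest lost regions, with 1 point per library for the WT and *Uhrf1* KO libraries and the region's length beside its name. ChIP reads run from 14 to 171 and background reads from 0 to 5; *Uhrf1* KO replicate 1, the smallest library, has the lowest count in 10 of the 12 regions.

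M104, in an intron of *Scarb2*, which codes for a lysosomal membrane receptor, had 171 and 53 ChIP reads in WT and 75 and 68 in *Uhrf1* KO over 1.2 to 2.2 kb, against 1 to 3 background reads. The nearest *Dhx9* KO peak was 28800 bp away. M066, in an intron of *Arhgef38*, which codes for a guanine nucleotide exchange factor, had 117 and 60 reads in WT and 46 and 103 in *Uhrf1* KO, and the nearest *Dhx9* KO peak was 63400 bp away. Both stood well apart from the peaks listed in *Dhx9* KO cells. M376, 4888 bp from the vomeronasal receptor pseudogene *Vmn1r-ps95*, had 54, 53, 32 and 122 reads in the same order, and M140, with the densest CG of the 12 (59 per kb), had 40, 36, 14 and 73.

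Several of the strongest regions shared sequence. Among the 66 pairs of the 12, the central 1 kb shared at least 100 words of 20 bases in 11 pairs and none in 52. M066 and M385 shared 647 of 981 words, M018 and M385 528 of 953, and M066 and M018 455 of 981. M104 and M376 shared 544 of 981, and M080 and M011, which shared 212 with each other, shared 0 with M066, M018 and M385, so the 12 do not hold a single sequence. A group was then built, after these values were seen, of all regions whose central 1 kb shares at least 100 such words, on either strand, with M066, M018 or M385. Sharing that many words is partial likeness, not a full copy, and the annotation used here names no repeats, so the group has no name.

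A larger share of the sequence group was lost than of other soft-masked sequence taken as a whole. Of its 227 regions with a peak in both WT and both *Uhrf1* KO libraries, 21 were lost in *Dhx9* KO cells (9.25%, Wilson 95% interval 6.13 to 13.7), and 18 of 224 without the 3 regions that defined it (8.04%). Of the 6399 other regions at least 90% soft-masked, 56 were lost (0.875%, 0.675 to 1.14). A further 36 regions of the group (15.9%) were missing in *Dhx9* KO replicate 1 alone and 6 (2.64%) in *Dhx9* KO replicate 2 alone, against 6.61% and 0.547% of the other masked regions. The intervals cover counting error over regions, which are not replicates, and the group was defined by lost regions, so the difference was not tested. A raised share was not particular to this group. Of regions sharing at least 100 words with M140, 5 of 69 were lost, counting M140 itself. In the same way it was 6 of 101 for M080, 3 of 50 for M072 and 5 of 126 for M011. For M019 it was 12 of 308 and for M170 2 of 7. All of these share no such word with M066, M018 or M385.

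The 21 lost regions of the group lay on 10 chromosomes, 14 between genes and 7 in introns (of *Aox2*, *Arhgef38*, *Tek*, *Sgip1*, *Fras1*, *Nipa2* and *Gm29676*), and none at a promoter. They were 1.0 to 4.4 kb long and had 28 to 44 CG per kb (median 33), against a median of 10 over all lost regions. Their ChIP reads ran from 34 to 117 (median 63) in WT replicate 1, 25 to 124 (53) in WT replicate 2, 14 to 65 (32) in *Uhrf1* KO replicate 1 and 27 to 169 (84) in *Uhrf1* KO replicate 2. *Tek* codes for the angiopoietin receptor and *Fras1* for an extracellular matrix protein; the regions there, M077 and M106, lie within the genes and not at their starts.

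Background reads moved with this result. Kept regions of the group had a median of 10.6 background reads per kb in the list of WT replicate 1, against 20.0 at other masked regions. Among regions with at most 10 background reads per kb in that list, 19 of 121 regions of the group were lost (15.7%) and 18 of 312 other masked regions (5.77%). The part of few mapped reads in the loss was not tested.

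Over all 442 merged regions of the group, whatever their class, 311 and 297 had a peak in the WT libraries, 274 and 427 in the *Uhrf1* KO libraries, and 190 and 251 in the *Dhx9* KO libraries. Both *Dhx9* KO libraries lay below both WT libraries (43.0% and 56.8% against 70.4% and 67.2%), and *Uhrf1* KO replicate 2 had a peak at 96.6%. The group was defined by lost regions and still holds its 21 lost ones. The lower *Dhx9* KO share is therefore partly set by that choice and was not tested. At the other masked regions the *Dhx9* KO libraries were not below WT, with peaks at 58.5% and 68.3% against 53.9% and 56.7%. At the 164 regions of the group kept in all libraries, the called length had medians of 2200 and 2200 bp in WT and 1400 and 2200 bp in *Dhx9* KO, with 77.1, 75.1, 62.1 and 72.6 ChIP reads per kb.

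**Figure D2:**
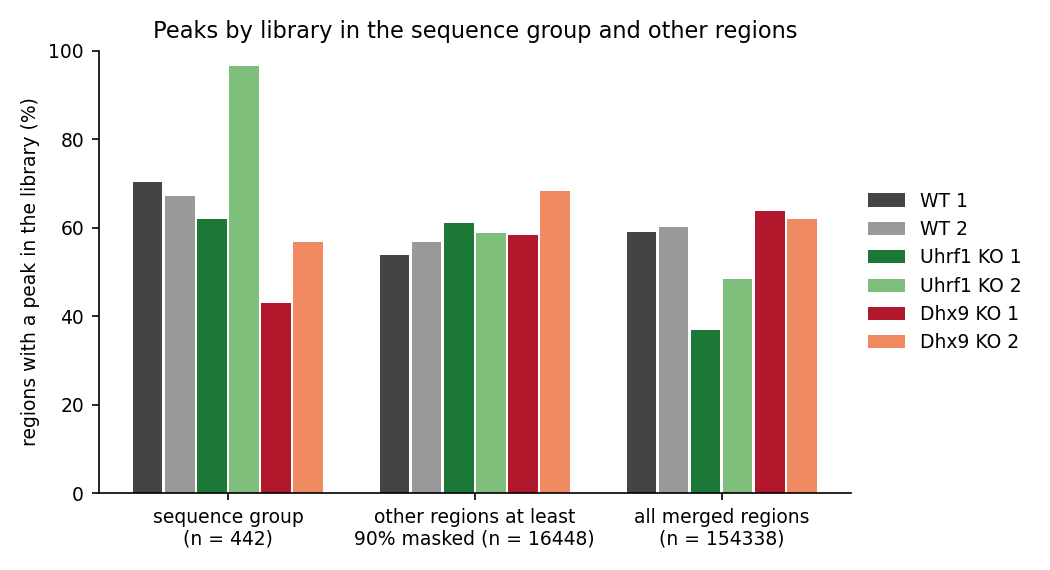
Share of merged regions with a peak in each of the 6 libraries, for the sequence group shared by M066, M018 and M385 (442 regions), other regions at least 90% soft-masked (16448) and all merged regions (154338). In the sequence group the *Dhx9* KO bars (43.0% and 56.8%) lie below the WT bars (70.4% and 67.2%), while over all regions they lie above them. The group was defined by lost regions and includes them, which partly sets this order.

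The densest cluster of lost regions lay among the immunoglobulin heavy chain variable (*Ighv*) genes of chromosome 12, which B cells recombine to build antibodies and which are silent in mESCs. Windows of 1 Mb from 115 to 116 Mb and from 114 to 115 Mb held 17 of 62 and 10 of 44 regions lost, the 2 highest counts among 386 windows with any. The stretch from the first to the last annotated *Ighv* entry (chr12:113572927-116010093, 185 entries) held 27 lost regions of 111 (24.3%, Wilson 95% interval 17.3 to 33.1), against 1.26% outside it. The stretch was picked because of these windows, so its share was not tested. Of the 27, 20 lay within 5 kb of an *Ighv* gene.

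**Figure D3:**
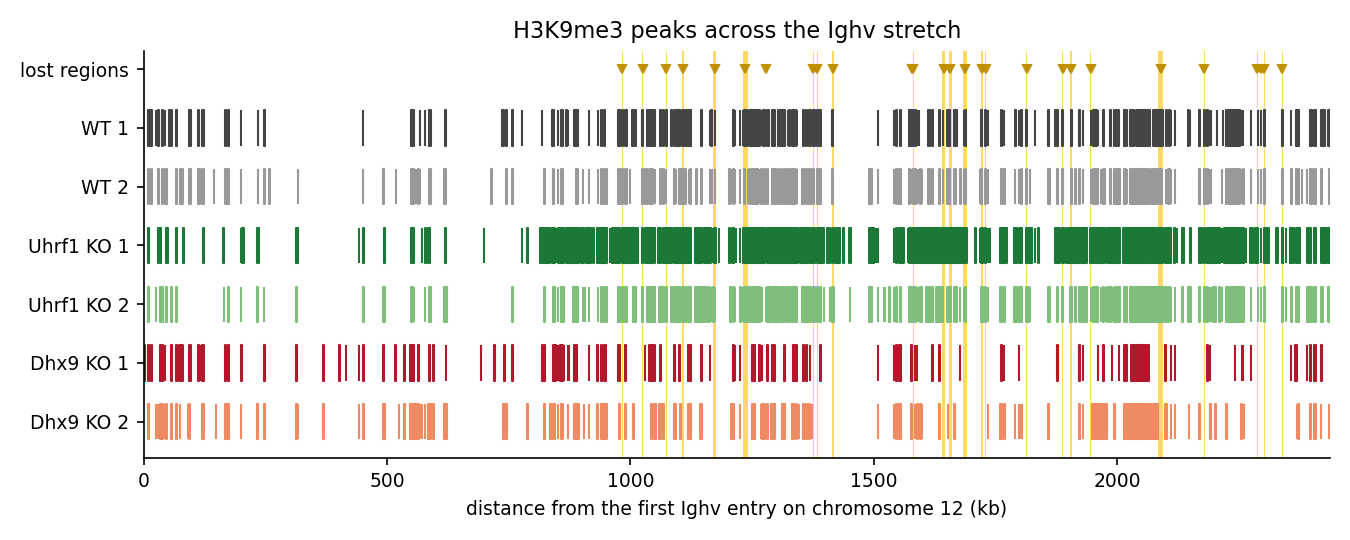
Peaks of the 6 libraries along the *Ighv* stretch of chromosome 12, in kb from its first annotated entry, with 1 row per library and filled blocks for called peaks; arrowheads and yellow bands mark the 27 lost regions. The lost regions lie away from the first entry, where the *Dhx9* KO rows have fewer blocks (124 and 141 peaks in the stretch, against 193 and 208 in WT). The stretch was picked for its missing *Dhx9* KO peaks.

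Over the stretch, WT peaks covered 418 and 412 kb, *Uhrf1* KO peaks 924 and 546 kb, and *Dhx9* KO peaks 242 and 344 kb. Each *Dhx9* KO library was thus below both WT libraries, and each *Uhrf1* KO library above them. The stretch was picked for its missing *Dhx9* KO peaks, and its lost regions add no *Dhx9* KO cover by the rule. The lower *Dhx9* KO cover is therefore partly set by that choice and was not tested. Where all libraries had a peak, the density of ChIP reads differed less: 86.1 and 85.0 reads per kb in WT, 49.4 and 85.2 in *Uhrf1* KO, and 76.0 and 76.0 in *Dhx9* KO. After scaling each library by its median over kept regions, the median log2 level of the 61 kept regions was 0.15 and 0.26 below WT in *Dhx9* KO replicates 1 and 2, while the WT libraries lay 0.03 to either side of their mean.

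The lost *Ighv* regions differed in sequence from the strongest ones. Their central 1 kb had a median of 4 CG per kb and 21.2% soft-masked bases, and their lowest log2 fold had a median of 0.90 and a highest value of 2.02. M364, the strongest, had 51 and 80 ChIP reads in WT and 44 and 87 in *Uhrf1* KO. M356, near *Ighv1-44*, had 70, 85, 61 and 110, and M374, over the promoter of *Ighv1-80*, had 54, 53, 38 and 94. The longest, M353, spans 10800 bp over *Ighv1-27*, *Ighv1-28* and *Ighv1-29*, with 535, 246, 585 and 603 reads.

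A second cluster lay on the same chromosome between 20 and 24 Mb (chr12:20000001-24000000), where 16 of 145 regions were lost (11.0%). It was singled out after its values were seen, from the window of 20 to 21 Mb, which held 7 lost regions of 54. The stretch holds pseudogenes and unnamed gene models, among them *Mrto4-ps1*, *Mrto4-ps2* and *Gm4425*. M318, in an intron of *Gm48693*, had 134 and 127 ChIP reads in WT and 51 and 134 in *Uhrf1* KO, and M325, near *Gm47437*, had 231 and 217 in WT and 92 and 260 in *Uhrf1* KO. Their lowest log2 folds were 1.86 and 1.54, where 281 of the lost regions had one under 1. Both have little CG (4 and 3 per kb).

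By chromosome, the lost share was highest on chromosome 12 (71 of 1840 regions, 3.86%) and chromosome 8 (63 of 2906, 2.17%), and 0.637% to 1.59% on the others. Chromosome 8 stood apart in a second way. *Dhx9* KO replicate 1 alone lacked a peak at 666 of its regions (22.9%), against 5.22% on the other autosomes, while *Dhx9* KO replicate 2 alone lacked one at 14 (0.482%, against 1.62%). The median log2 level of kept regions of chromosome 8, relative to WT, was -0.06 and -0.07 in *Uhrf1* KO replicates 1 and 2. It was 0.14 below WT in *Dhx9* KO replicate 1 and 0.03 above WT in *Dhx9* KO replicate 2. Chromosome 4 was shifted the other way in the same library, with a median log2 level 0.16 above WT in *Dhx9* KO replicate 1 and 0.03 below in *Dhx9* KO replicate 2; there 26 of 2262 regions were missing in *Dhx9* KO replicate 1 alone and 19 were lost (0.840%). The part of this library in the 63 lost regions of chromosome 8 was not tested; without chromosome 8, 446 lost regions of 35328 remained (1.26%), and without the *Ighv* stretch 482 of 38123 (1.26%).

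**Figure D4:**
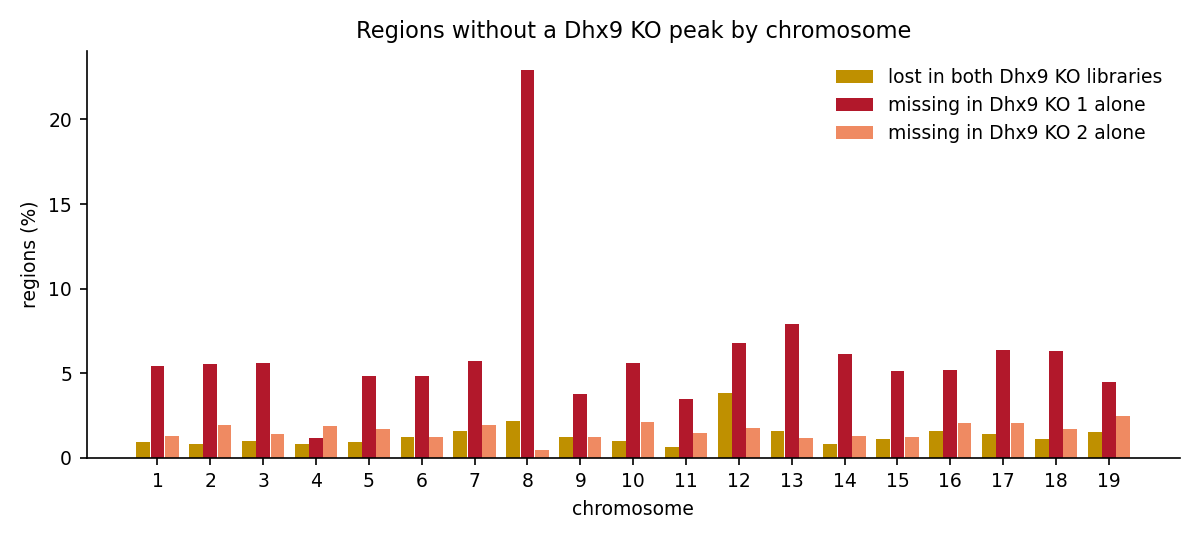
Share of regions with a peak in both WT and both *Uhrf1* KO libraries that were lost in both *Dhx9* KO libraries, or missing in 1 of them alone, by autosome. The lost share is highest on chromosomes 12 (3.86%) and 8 (2.17%), and on chromosome 8 the share missing in *Dhx9* KO replicate 1 alone is 22.9%.

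Most windows held few lost regions. Of the 386 windows of 1 Mb with at least 1, 319 held 1 and 45 held 2, and the other 22 held 100 together. The window of 38 to 39 Mb of chromosome 17, which holds olfactory receptor (*Olfr*) genes, had 5 of 43 lost, and the window of 130 to 131 Mb of chromosome 6, with the *Klra* genes that code for receptors of natural killer cells, had 5 of 40. On chromosome 6, WT peaks covered 126 and 124 kb of that window, *Uhrf1* KO peaks 432 and 210 kb, and *Dhx9* KO peaks 82.6 and 155 kb, so the *Dhx9* KO libraries lay on either side of WT.

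Gene families that carry H3K9me3 in mESCs were compared by the regions within 5 kb of a member gene. Beside the *Ighv* genes (20 of 94 regions lost, 21.3%), the zinc finger genes had 18 of 359 lost (5.01%), against 1.33% of all regions. The vomeronasal receptor genes, which are pheromone receptors in clusters, had 6 of 345 (1.74%) and the olfactory receptor genes 2 of 435 (0.460%). No region was lost near clustered protocadherin genes (0 of 16), germline genes (0 of 24), genes of the two-cell stage (0 of 18) or genes of heterochromatin factors (0 of 3). With an approximate upper limit of 3 counts for a count of 0, the first 3 of these groups allow shares of up to 18.8%, 12.5% and 16.7%. Too few regions lay near genes of heterochromatin factors for such a limit.

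Many zinc finger genes code for DNA-binding repressors and sit in clusters. The genes compared here were all those with symbols starting *Zfp* or *Zscan*, clustered or not. Those concerned were *Zfp990*, *Zfp980*, *Zfp979*, *Zfp534* and *Zfp984* on chromosome 4, *Zfp536*, *Zfp976* and *Zfp975* on chromosome 7, *Zfp930* and *Zfp958* on chromosome 8, *Zfp229* and *Zfp97* on chromosome 17, and *Zfp810*, *Zfp873* and *Zfp263* elsewhere. M089, in an intron of *Zfp534*, had 41 and 40 ChIP reads in WT and 49 and 35 in *Uhrf1* KO. M162, in an intron of *Zfp975*, had 70, 55, 38 and 41 in the same order, and M160, in an exon of *Zfp976*, had 58, 56, 47 and 89. The lowest log2 folds of these 3 ran from 1.14 to 1.91.

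The receptor genes were represented by M124 near *Vmn1r26*, with 42, 51, 29 and 43 reads, M150 in an intron of *Vmn2r51*, with 57, 45, 42 and 49, and M149 in an exon of *Vmn2r50*, with 58, 41, 89 and 59. M468, 1434 bp from *Olfr138*, had 75, 44, 24 and 51 reads. *Uhrf1* KO replicate 1 had the fewest reads at *Vmn1r26*, *Vmn2r51* and *Olfr138* and the most at *Vmn2r50*. Of the 26 regions near imprinted genes 1 was lost, M183 in an exon of *Inpp5f*, a phosphatase gene with a paternally expressed variant. It was weak, with 122, 104, 27 and 84 reads and log2 folds of 0.61, 0.44, 0.54 and 0.52.

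By the position of their centres, 275 lost regions lay between genes (54.0%), 177 in introns (34.8%), 17 in exons (3.34%) and 40 within 1 kb of a gene start (7.86%). The shares over all 38234 regions were 61.2%, 30.8%, 2.75% and 5.32%. Without the *Ighv* windows, where short gene entries are dense, the promoter share was 5.81%. A protein-coding start lay within 1 kb of 22 lost regions (4.32%), against 6.49% of all.

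Several promoters lost the peak. M466 at *Zfp229* had 79 and 81 ChIP reads in WT and 32 and 79 in *Uhrf1* KO, and the nearest *Dhx9* KO peak was 40000 bp away. M222 at *Zfp930*, also a zinc finger gene, had 150, 145, 74 and 90 reads in the same order, with a *Dhx9* KO peak at 1400 bp. M281 at *Zfp873* had 127, 61, 64 and 42, with one at 800 bp. The first of these was far from any peak listed in *Dhx9* KO cells, and the other 2 were close to one.

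M297, at the *Sox30* promoter, had 90 and 83 reads in WT and 33 and 94 in *Uhrf1* KO, with 51, 49, 8 and 25 background reads. Its central 1 kb has 117 CG per kb, the CG-dense kind of promoter, against a median of 10 over the lost regions. M390 overlaps the start of *Fam240b* and is wholly soft-masked, with 44, 84, 24 and 134 reads. M346, over the starts of the cyclin gene *Ccnk* and of *Setd3*, which codes for a histidine methyltransferase, had 64, 38, 50 and 102 reads, and M029, at a start of the nuclear receptor gene *Esrrg*, had 91, 86, 36 and 77. M483, at the start of *Cetn1*, a centrin gene of the testis, had 58, 36, 32 and 68.

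The longest lost region was broad and weak. M245, 28.6 kb in introns of *Gm20388* on chromosome 8, had 986 and 1203 ChIP reads in WT and 39 and 270 in *Uhrf1* KO, with log2 folds of 0.49, 0.40, 0.62 and 0.48. M467, 21.6 kb over *Dnah8*, a dynein gene of the sperm tail, had 1068, 1002, 72 and 473 reads. The regions with the most WT reads also include M190 at *Fbxo25* (714, 654, 49 and 299 reads) and M246 at *Rab4a* (534, 623, 30 and 54), both on chromosome 8. In these 4 regions *Uhrf1* KO peaks covered far less than WT peaks, at M245 1600 and 8400 bp against 19600 and 27600 bp.

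M083, 24.2 kb beside *Zfp990*, had 2098 and 268 reads in WT and 857 and 1474 in *Uhrf1* KO, over 17400, 2800, 17200 and 18600 bp called, so WT replicate 2 was the library apart. M084, in an intron of *Gm13212* in the same cluster, had 744, 719, 613 and 805 reads, even across all 4 libraries. M307, 16000 bp between genes on chromosome 12, had 695, 496, 301 and 553.

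Over all lengths, the base composition of lost regions was close to the rest. Their central 1 kb had a median GC content of 44.7% (45.2% over all 38234 regions), 10 CG per kb (9) and 37.8% soft-masked bases (35.7%). Among regions up to 3.4 kb long, where most lost regions fall, the soft-masked share was lower at the 312 lost regions than at the 6323 kept ones (medians of 48.9% and 62.8%, with 49.0% and 61.5% at least 50% masked). At least 20 CG per kb were found in 16.9% of lost regions and 11.6% of all. Motifs were searched on both strands and could overlap: TTAGGG, the telomere repeat, stood in 32.6% of lost regions and 32.9% of all, and TGCCGC, the core bound by ZFP57 when methylated, in 10.8% and 10.3%. 4 runs of GGG with 1 to 7 bases between them, which can fold into quadruplexes of a kind DHX9 unwinds, were found in 17.7% and 14.3%, and CA repeated 10 or more times in 8.25% and 7.65%. An inverted repeat of a 20-base word was found in 1.96% and 1.83%. Among regions up to 3.4 kb long, the 4 GGG runs stood in 14.42% of lost regions and 12.95% of kept ones, a smaller gap. Over all lengths they stood in 19.55% of regions lost only in *Uhrf1* KO cells and 21.34% of those lost in both knockouts. The share was thus not highest in the regions lost only in *Dhx9* KO cells, and a link of these runs to the loss was not tested.

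Strength and repeat content went together among the lost regions. The median soft-masked share was 23.9% at the 281 with a lowest log2 fold under 1, 52.7% at the 163 from 1 to 2, 90.2% at the 46 from 2 to 3 and 100% at the 19 above. The same order was seen at kept regions, with 21.2%, 44.5%, 80% and 99.4%. Background reads fell along it: the medians at lost regions were 26, 20, 11.5 and 4.44 per kb in the list of WT replicate 1. These medians share one source of reads and reference, and carry no test.

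Peaks were left in *Dhx9* KO cells at varied distances from the lost regions. The nearest *Dhx9* KO peak was a median of 4000 bp away (range 200 to 139000); 72 lost regions had one within 1 kb, 299 within 5 kb and 464 within 20 kb. At 3 regions (M095, M133 in *1700030F04Rik* and M448 in *Nrip1*) it was 200 bp away. At 10 regions, among them M066, M003 in *Dst* and M035 in *Lrp1b*, none lay within 50 kb. From 5 to 20 kb around the lost regions, peaks covered 17.8% and 18.3% of positions in WT, 17.3% and 19% in *Uhrf1* KO, and 14.0% and 18.3% in *Dhx9* KO, so *Dhx9* KO replicate 1 alone was lower. Around kept regions the same shares were 25.8% and 25% in WT, 15.1% and 23.8% in *Uhrf1* KO, and 25.2% and 26.1% in *Dhx9* KO, so lost regions lay where WT and *Dhx9* KO peaks were sparser.

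**Figure D5:**
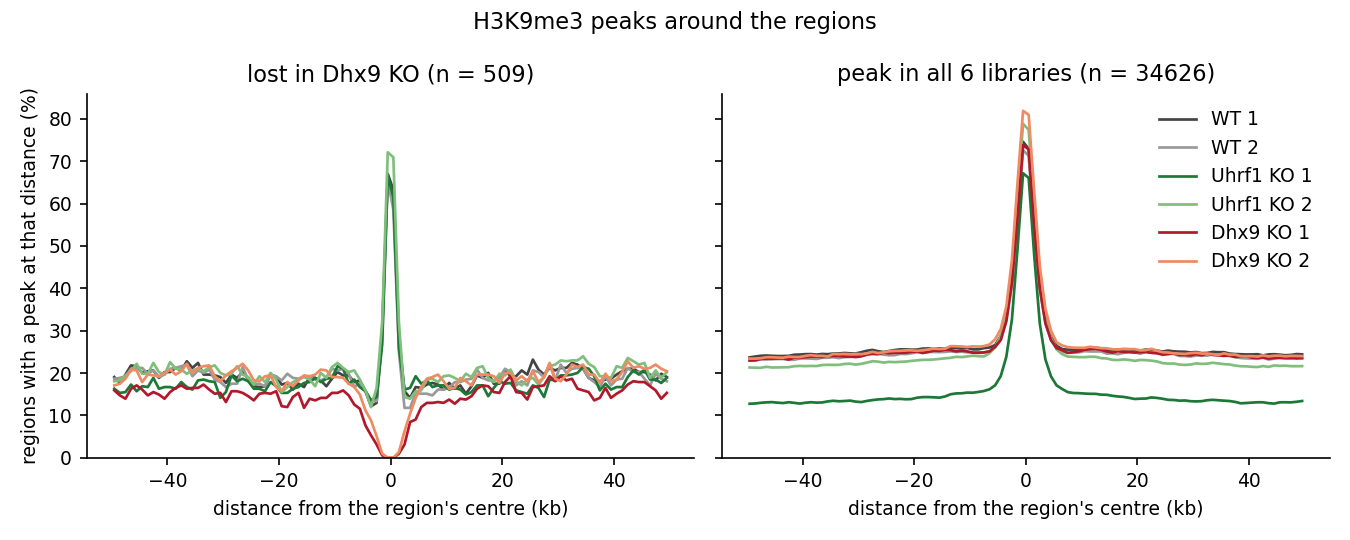
Share of regions with a peak at each distance from the centre, in steps of 1 kb to 50 kb on either side, with 1 line per library, for the 509 lost regions (left) and the 34626 kept in all libraries (right). The gap of the *Dhx9* KO lines at the centre on the left is what chose the regions; 5 to 20 kb away *Dhx9* KO replicate 2 (18.3%) lies with the WT lines (17.8% and 18.3%) and *Dhx9* KO replicate 1 lower (14.0%).

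The rule used no read counts of the *Uhrf1* KO libraries beyond the presence of a peak, so the read counts of WT and *Uhrf1* KO cells were compared. The comparison is limited by the rule: a region that lost its peak in *Uhrf1* KO cells could not be among the 509, nor could one with a poorly covered peak enter the fit. Of the 38234 regions, 1460 were covered over at least 80% by peaks in all 4 libraries and were fitted together, 50 of them lost in *Dhx9* KO cells. These 50 were short (median 1100 bp), with median ChIP reads of 62.5 and 60.0 in WT and 29.5 and 63.0 in *Uhrf1* KO. In edgeR's quasi-likelihood test at an FDR of 0.05, 94 of the 1460 (6.44%) were lower in *Uhrf1* KO and 24 (1.64%) higher. Of the 50, 1 was lower and 0 higher. At an unadjusted p under 0.05, 3 of the 50 were lower and 2 higher, against 235 and 138 of the 1460. The median log2 change of the 50 was -0.17, against -0.05 over all 1460.

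The one lower region was M054 (chr3:50813801-50814800, between genes), with 73 and 76 reads in WT and 27 and 54 in *Uhrf1* KO, a log2 change of -0.82 (SE 0.23) and an adjusted p of 0.0473 in edgeR's test with Benjamini-Hochberg adjustment. The 2 *Uhrf1* KO values lie below both WT values, but the libraries differ in size. M072, with 31, 41, 30 and 84 reads, and M351 at *Ighv1-18*, with 182, 202, 217 and 308, did not pass, with log2 changes of 0.81 (SE 0.26) and 0.60 (SE 0.20) and adjusted p of 0.0758 and 0.0870 in the same edgeR test. Without WT replicate 1 or without WT replicate 2, 0 of the 50 were lower, and without *Uhrf1* KO replicate 1, 5 were.

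Whether regions beside the lost ones carried less H3K9me3 in *Dhx9* KO cells was tested in the regions that kept a peak. A region whose *Dhx9* KO peaks shrank to under 80% of it could not enter the fit, and called length was offset. Few calls among the neighbours therefore do not show that the mark was kept beside the lost regions. Of 2860 regions covered over at least 80% in both WT and both *Dhx9* KO libraries, 8 were lower in *Dhx9* KO (0.28%) and 1 higher (0.035%) in edgeR's test, and 198 and 141 had an unadjusted p under 0.05. Of the 39 within 20 kb of a lost region, 0 passed in either direction in edgeR, and 9 and 2 had an unadjusted p under 0.05. DESeq2 gave an adjusted p for 17 of the neighbours, of which 0 passed. The neighbours' median log2 change was -0.07 in edgeR, against 0.01 over all 2860. With *Dhx9* KO replicate 1 left out 6 of the 39 were lower and 2 higher, and with *Dhx9* KO replicate 2 left out 11 and 4, so this count depends on which *Dhx9* KO libraries are used.

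The neighbours with the smallest p lay mostly in the cluster of 20 to 24 Mb on chromosome 12. The region at chr12:21752601-21754600 had 249 and 256 reads in WT and 134 and 164 in *Dhx9* KO, a log2 change of -0.61 (SE 0.16) and an adjusted p of 0.214 in edgeR's test. The region at chr12:20329601-20351400, 21.8 kb long, had 1362 and 1114 reads in WT and 713 and 851 in *Dhx9* KO (log2 change -0.51, SE 0.14, adjusted p of 0.243 in edgeR's test). Both *Dhx9* KO values were below both WT values in each, without passing the test. At the *Inpp5f* promoter (chr7:128683201-128691000), 4600 bp from M183, the reads were 465 and 577 in WT and 332 and 442 in *Dhx9* KO (log2 change -0.47, SE 0.14, adjusted p of 0.247).

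Over all regions with a peak in both WT and both *Dhx9* KO libraries, whatever their cover, 51 of 68 in the *Ighv* stretch and 101 of 135 between 20 and 24 Mb of chromosome 12 had a log2 change below 0, with medians of -0.21 and -0.18 against -0.01 over all 55331. In neither stretch did a region pass edgeR's test. At an unadjusted p under 0.05 in that test, 15 and 26 were lower, and 1 and 4 higher. Over all 55331 regions, 4083 were lower and 1441 higher at that p. Both stretches were picked for their missing *Dhx9* KO peaks, so the levels of their other regions are not independent of that choice. In the comparison of *Uhrf1* KO with WT, the medians of the 2 stretches were 0.05 and -0.03.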

How the data were processed

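H3K9me3 ChIP-seq peak lists of 6 libraries were analysed. The authors aligned single-end reads to mm10 with Bowtie2 2.3.4.3, subsampled them with SAMtools and called peaks per library with epic2 0.0.51, keeping duplicates; bins are 200 bp. The deposited lists give raw read counts per peak, ChIP and background. They also give the authors' p-value with its FDR, the log2 fold of ChIP over background, and a score, which was used only to read the lists. The log2 fold of a region is the highest of its peaks, and reads are summed over its peaks. Depth limits each value, and intervals cover counting error only.

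Regions were merged, placed and described with Python 3.11.15, numpy 2.4.6, pandas 2.3.3 and scipy 1.17.1, on GENCODE genes and the soft-masked GRCm38 reference; list positions fit the unshifted mm10 chromosome ends. Read counts of regions covered over 80% in each of 4 libraries went into the quasi-likelihood test of edgeR 4.0.16 under R 4.3.3, scaled by TMM and by an offset for called length, at a Benjamini-Hochberg FDR of 0.05; DESeq2 1.42.0 served as the other tool. Tested on simulated data, 179 of 200 regions changed 2-fold were recovered among 1460 for the comparison with *Uhrf1* KO, with 6 false calls, and 177 of 200 among 2860 for that with *Dhx9* KO, with 12. The simulation gave every region the same spread between libraries and the same called length. Recovery in the real lists, and among the short lost regions, can therefore be lower. Libraries of a genotype differed beyond sampling noise. The study describes biological replicates; if they share a culture, p-values measure the spread between these libraries alone.

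The regions, lists and tests were chosen with earlier results of these data known. Named are the 12 regions of highest lowest log2 fold, the 5 longest, the 5 with most WT reads, the 8 strongest at a protein-coding start, the 10 strongest near listed genes, the 5 windows with most lost regions, those past a test's threshold (or of smallest p) and those nearest a *Dhx9* KO peak or just outside. The sequence group, the *Ighv* stretch, the stretch of 20 to 24 Mb and the other regions named in them were added after values were seen. Alternatives were stricter peaks, other merging, other normalization and leaving out libraries.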

Additional observations from a re-analysis of the deposited data

How the results depend on the processing

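The number of lost regions, 509, was within 1.5 times of itself with peaks of FDR up to 1e-10, with peaks 1 kb apart merged, with 50% of a region to be covered, with sex chromosomes and with no *Dhx9* KO peak allowed within 1 kb (404 to 589). It was 1266 with a log2 fold of at least 1 and 1260 with lists of equal length. Leaving out 1 library gave 717 to 3162, the highest without *Dhx9* KO replicate 2. Without chromosome 8 it was 446 and without the *Ighv* stretch 482, both tried after seeing the data.

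In *Uhrf1* KO against WT, 94 regions were lower and 24 higher (of the lost regions, 1 and 0). DESeq2 gave 57 and 6 of the 1375 regions with an adjusted p (0 and 0 of 29 lost regions), equal library sizes 0 and 0 (0 and 0), no length offset 99 and 80 (0 and 1), and all 38234 regions 4 and 0 (0 and 0). Leaving out 1 library gave 8 to 243 lower and 0 to 106 higher (0 to 5 and 0 to 3 of the lost regions). In *Dhx9* KO against WT, 8 were lower and 1 higher (0 and 0 of the neighbours). DESeq2 gave 16 and 0 of 1252, equal library sizes 6 and 0, all 55331 regions 8 and 0. Leaving out 1 library gave 6 to 311 and 1 to 150 (0 to 11 and 0 to 4 of the neighbours). A lone library was assumed to vary like the other group.

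The replicate block gave 127 and 49 in *Uhrf1* KO (1 and 1 of the lost regions) and 12 and 1 in *Dhx9* KO. Same-numbered libraries deviated together with correlations of 0.087 and -0.063, so the numbers do not pair them. The cause of these shifts was not tested. The promoter share was 4.52% with 500 bp on each side of a start, in place of 7.86%.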
